A study of Mus musculus with 11 samples.

Results

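The miRNAs described here are mmu-miR-199a, mmu-miR-199b and mmu-miR-214 (below without the prefix for mouse), 3 of the 334 mouse miRNAs on a custom array, and they were taken as all plus-strand mouse spots whose probe description names a miR-199 or miR-214. Each miRNA had 4 replicate spots, so that they make up 12 of the 1336 spots used on each array. The * arm of miR-199a was not analysed here. Arrays were available for the mammary glands of late-pregnant mice of 3 backgrounds, 2 FVB, 3 Balbc and 3 FVB129B6, and for 3 primary mammary tumors of C3TAg mice, which carry the strain label FVB. C3TAg mice carry the SV40 T/t-antigens as a transgene under the C3(1) promoter, which is active in mammary ductal epithelium and is not strictly limited to it. None of the gland groups is labelled as carrying a transgene. Of the Balbc arrays, replicates 2 and 3 have titles that differ only in a final letter, and they may come from 1 mouse. The methods take tumors from individual mice, but whether the gland arrays of a group come from separate animals is not stated outright, so that the p-values below measure the spread between these arrays, which may be technical in part.

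miR-199 and miR-214 are known as miRNAs of mesenchymal cells such as fibroblasts, and they are often read as a sign of stroma in an organ that also holds epithelium. A miRNA silences messenger RNAs that pair with its seed, the short stretch near its 5′ end. miR-199a and miR-199b have near-identical mature sequences that come from different genes, while miR-214 is processed together with a copy of miR-199a from a long noncoding RNA, Dnm3os, that lies within the gene of a dynamin on the opposite strand. The transcription factor Twist1 is known to switch Dnm3os on during development.

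The mature sequences are shown because they decide what the probes can tell apart. In each, capitals mark the seed (bases 2 to 8, counted from the 5′ end).
miR-199a: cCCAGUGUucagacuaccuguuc
miR-199b: cCCAGUGUuuagacuaccuguuc
miR-214: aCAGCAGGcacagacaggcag
These are the bases that the deposited probes match, read as RNA. The miR-199a sequence equals RefSeq's mature miR-199a-5p, which the GRCm38.p6 annotation places at chr1:162217844-162217866 on the plus strand (Mir199a-2) and at chr9:21496537-21496559 on the minus strand (Mir199a-1). The miR-214 sequence is miR-214-3p without its last base, at chr1:162223438-162223459 on the plus strand. miR-199b matched the 5′ arm of the Mir199b hairpin, at chr2:32318460-32318569 on the plus strand. In this annotation Mir199a-2 and Mir214 lie within the noncoding gene Dnm3os, with 5444 bases between their hairpins, Mir199a-1 lies within the span of Dnm2 and Mir199b within that of Dnm1.

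miR-199a and miR-199b differ by the single substitution C10U, counted from the 5′ end, and share the seed. The probes of miR-199a and miR-199b can therefore share target molecules, and their values are not independent readings of separate genes. The copies of miR-199a on chromosomes 1 and 9 give the same mature sequence and cannot be told apart at all. miR-214 is 13 edits from miR-199a and 14 from miR-199b. No other of the 282 mouse probes that matched a RefSeq hairpin came closer than 9 edits to the miR-199 probes or 8 edits to the miR-214 probe. miR-761 shares the seed of miR-214, but it was well above background on 0 of 8 gland arrays and 0 of 3 tumor arrays.

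All 3 miRNAs were well above background in every gland and were not called between the 3 backgrounds on the array median scale, while in the C3TAg tumors their green signals were low and mostly not distinguishable from background. Levels are given as the log2 of the green signal of a miRNA, averaged over its spots, minus the median of the array, so that 0 is the median spot. A miRNA is called well above background on an array where the scanner program calls at least 50% of its spots so. The level of miR-199a was 5.58 and 6.21 on the FVB arrays, 5.71, 5.73 and 6.05 on the Balbc arrays, and 5.64, 5.68 and 6.03 on the FVB129B6 arrays. Both the highest and the lowest of these 8 values belonged to FVB, whose range takes in every Balbc and FVB129B6 array. In the tumors it was 1.55, 1.10 and 2.64, and only the third of these arrays was well above background. The tumor arrays did not overlap the gland arrays, and how many of all miRNAs separate in this way is not given here.

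miR-199b, the miRNA that differs from miR-199a by 1 base, had the same order of strain means. Its level was 5.60 and 6.15 in FVB, 5.76, 5.64 and 6.03 in Balbc, and 5.59, 5.69 and 6.01 in FVB129B6. The strains overlapped throughout. In the tumors it was 1.73, 0.55 and 2.49, and again only the third array was well above background. miR-214, the partner of miR-199a in the Dnm3os transcript, stood at 2.12 and 2.61 in FVB, at 1.95, 1.98 and 2.06 in Balbc, and at 2.16, 2.08 and 2.32 in FVB129B6. FVB replicate 2 was the highest of the gland arrays for miR-214 as for both miR-199 probes, and the Balbc arrays were the 3 lowest for miR-214. How many of all miRNAs have Balbc arrays below both FVB arrays is not given here. In the tumors miR-214 was at -0.13, 0.095 and -0.13, and it was well above background on 0 of 3 arrays.

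**Figure D1:**
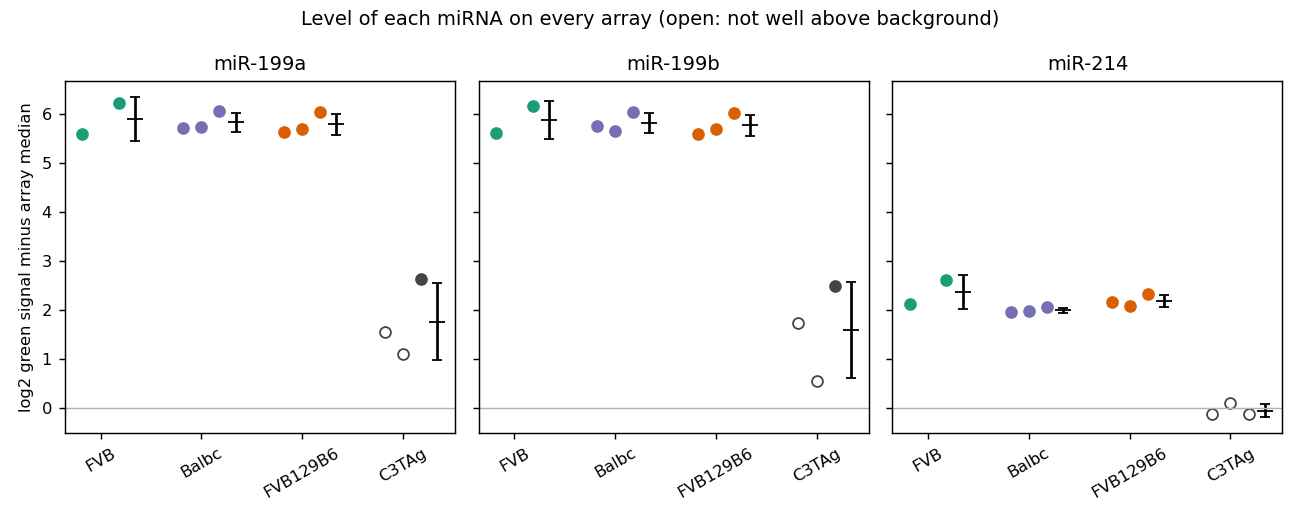
Level of miR-199a, miR-199b and miR-214 on each of the 11 arrays (log2 green signal minus array median), grouped by strain or tumor, with bars for mean ± SD. Filled points are well above background. The 8 gland arrays lie between 5.58 and 6.21 for miR-199a and between 1.95 and 2.61 for miR-214, and all tumor arrays lie below them.

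As group means, miR-199a was at 5.90 ± 0.44 in FVB (SD, n = 2), 5.83 ± 0.19 in Balbc (n = 3), 5.78 ± 0.21 in FVB129B6 (n = 3) and 1.76 ± 0.79 in C3TAg (n = 3). The means of miR-199b were 5.88 ± 0.39, 5.81 ± 0.20, 5.76 ± 0.22 and 1.59 ± 0.98 in the same order and with the same n. Neighbouring strains in this order differed by less than the SD of either. For miR-214 the order was FVB at 2.37 ± 0.34, FVB129B6 at 2.18 ± 0.12, Balbc at 2.00 ± 0.05 and C3TAg at -0.05 ± 0.13. Here FVB129B6 lay below FVB by less than the SD of FVB but more than its own, and Balbc lay below FVB129B6 by more than the SD of either. On each gland array the miR-199a level was above that of 85.3% to 89.2% of the 334 miRNAs, and the miR-214 level above that of 63.8% to 67.7%. On the tumor arrays the shares were 83.5% to 89.2% for miR-199a and 22.5% to 48.2% for miR-214. For miR-199b they were 85.6% to 88.9% in the glands and 79.9% to 87.4% in the tumors. On a tumor array 15 to 64 of the 334 miRNAs were well above background, so most places there order spots at background. The miR-199 probes were well above background on 1 of 3 tumor arrays and miR-214 on 0 of 3. The places of the 3 miRNAs are therefore not compared between tumors and glands. These shares give the place of a probe on its array and do not compare amounts of RNA between miRNAs.

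The green processed signals of the scanner program show the same split before the arrays are centred on their medians. They are output of the program, whose version differed between gland and tumor arrays, and not the raw scans. Negative control spots carry no miRNA sequence and give the background of an array, and their median green intensity was 14.1 to 21.6 on the gland arrays but 117 to 163 on the tumor arrays. The median of the 4 miR-199a spots was 11850 to 37200 on the gland arrays, which is 785 to 2067 times the negative controls of the same array. On the tumor arrays it was 505, 260.5 and 884.5, or 3.10, 1.92 and 7.56 times the negative controls. The brightest single green control spot of these arrays, in the same order, reached 936, 422 and 406. miR-199b behaved alike, at 798 to 2011 times the negative controls in the glands and 3.08, 1.14 and 7.00 times in the tumors. For miR-214 the ratio was 70.5 to 145 in the glands and 0.988, 1.01 and 0.979 in the tumors, so that its tumor spots were as bright as spots with no miRNA sequence. In the glands 32 of 32 spots of each miRNA were called well above background. In the tumors this held for 3 of 12 spots of miR-199a, 4 of 12 of miR-199b and 0 of 12 of miR-214.

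**Figure D2:**
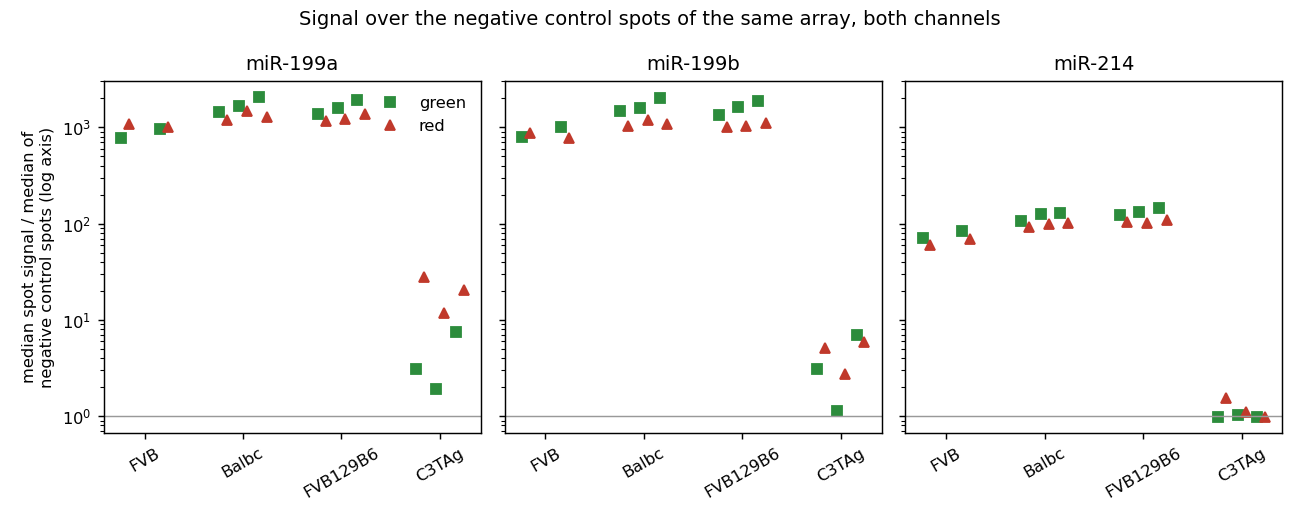
Median spot signal of each miRNA divided by the median of the negative control spots of the same array, on a log axis, for the green (squares) and red (triangles) channels of all 11 arrays. The grey line marks the level of the controls, which the green miR-214 signal of the 3 tumors meets at 0.979 to 1.01.

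The tumor arrays as a whole were dim. The scanner program called 15 to 64 of the 334 miRNAs well above background on a tumor array, against 209 to 262 on a gland array. The median spot intensity of the tumor arrays, 125 to 170, was close to that of their own negative controls, whereas on the gland arrays it was 188.5 to 671.5. Tumor and gland arrays lay on different slides and were extracted with different program versions, so that tissue, slide and program version cannot be told apart. The 2 FVB arrays had a column of the gland slide to themselves and the lowest median intensities of the glands.

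The comparison of backgrounds asks whether the levels in the late-pregnant gland depend on the strain. The F-test of limma over the 3 strains called 0 of the 3 miRNAs, with adjusted p of 0.910 for miR-199a, 0.910 for miR-199b and 0.291 for miR-214. The same test called 46% of the 261 miRNAs tested, and at an unadjusted p under 0.05 the count for the 3 miRNAs was again 0. A miRNA counts as called at an adjusted p under 0.05, with Benjamini-Hochberg adjustment over all miRNAs tested.

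Between Balbc and FVB, 0 of 3 were called, where 37.9% of all tested miRNAs were. miR-199a differed by -0.07 (95% interval -0.64 to 0.50, adjusted p = 0.862 in limma), and miR-199b by -0.06 (-0.61 to 0.48, adjusted p = 0.862). These intervals leave room for a change of either sign. miR-214 differed by -0.37 (-0.81 to 0.08, adjusted p = 0.155). It was lower in 3 of 3 Balbc arrays than in either FVB array, but 56.7% of all 261 miRNAs tested had a difference at or below its own. Without FVB replicate 1 the difference of miR-214 was -0.61. That removal leaves a lone FVB array to which the fit assigns the spread of the other strains, so no call is read from it.

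Between FVB129B6 and FVB, 0 of 3 were called, against 39.5% of all. The differences were -0.12 for miR-199a (95% interval -0.68 to 0.45), -0.11 for miR-199b (-0.66 to 0.44) and -0.18 for miR-214 (-0.62 to 0.26), and the adjusted p of limma lay at 0.716, 0.715 and 0.477. Between Balbc and FVB129B6, 0 of 3 were called, against 3.45% of all. Here miR-199a differed by 0.05 (-0.46 to 0.56), miR-199b by 0.05 (-0.44 to 0.54) and miR-214 by -0.19 (-0.58 to 0.21), with adjusted p of 0.949, 0.949 and 0.622.

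The sign of these small strain differences changed with the scaling of the arrays. The median of all tested miRNAs itself differed by -0.48 between Balbc and FVB and by -0.39 between FVB129B6 and FVB. Taken relative to that median, a value that a constant per array does not move, miR-199a was 0.41 higher in Balbc and 0.27 higher in FVB129B6 than in FVB. The values for miR-199b were 0.42 and 0.28. For miR-214 they were 0.11 and 0.21. On the unscaled signals all 3 miRNAs were called higher in Balbc (1.28, 1.29 and 0.98) and in FVB129B6 (1.30, 1.30 and 1.23) than in FVB, beside medians of all tested of 0.87 and 1.02. Of all 261 miRNAs tested, 151 were then called higher in Balbc and 176 in FVB129B6. With a normexp background correction miR-199a and miR-199b were called higher in both (0.72 and 0.79 in Balbc, 0.59 and 0.62 in FVB129B6) and miR-214 in FVB129B6 (0.41). That correction called 46 of all 261 higher in Balbc and 44 in FVB129B6, and 67 and 76 lower.

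The comparison of tumors and glands covers the model whose tumors were deposited with the strains. All 3 miRNAs were called lower in C3TAg than in the mean of the 3 strains, where 90.4% of all tested miRNAs were called and 52.5% were called lower. The difference of miR-199a was -4.07 (SE 0.30, limma adjusted p = 2.16e-07), and 22.6% of all tested miRNAs had a difference at or below it. For miR-199b it was -4.23 (SE 0.34, adjusted p = 4.99e-07). With the dim tumor arrays raised to the dimmest miRNA that each array still measured above background, these differences were -3.57 and -3.60 on the array median scale. The raised values depended on the scaling: glands then stood above the tumors by 0.60 and 0.63 with the 75th percentile, by 1.04 and 1.07 with arrays scaled on miRNAs well above background throughout, and by 0.038 and 0.075 with quantile normalization, under which miR-199a had no bound over 1 against FVB. Both miR-199 values rest on signals of which 1 of 3 tumor arrays was well above background.

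For miR-214, which no tumor array measured above background, only a bound can be given. Glands were at least 1.31-fold above the lowest measurable tumor level on the array median scale, beside a fitted difference of -2.24 (SE 0.15, limma adjusted p = 1.34e-07; means 2.18 in the glands and -0.05 in the tumors). For such a bound a tumor array counts at its own level or, where that is lower, at the level of the dimmest miRNA that the array measured above background. Against the FVB glands alone, which share the strain label of the tumors, 3 of 3 were again called lower, beside 88.1% of all tested called in either direction and 52.5% called lower. The differences were -4.13 for miR-199a (SE 0.40, adjusted p = 3.12e-06) and -4.29 for miR-199b (SE 0.46, adjusted p = 7.21e-06). miR-214 was at least 1.48-fold higher in FVB, with a fitted difference of -2.42 (SE 0.21, adjusted p = 1.17e-06).

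**Figure D3:**
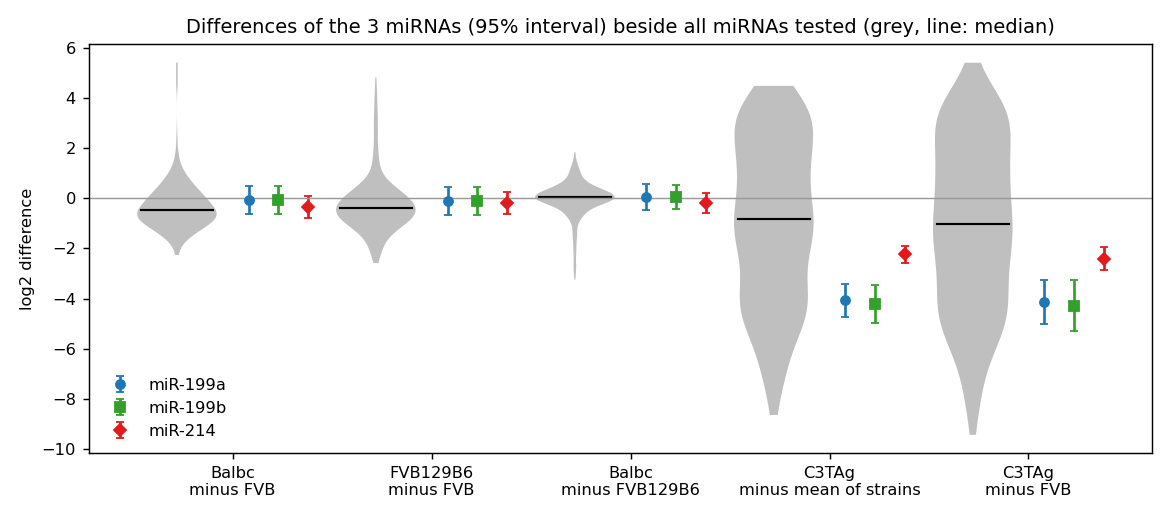
Log2 differences of miR-199a, miR-199b and miR-214 with 95% intervals in 5 comparisons, beside the distribution over the 261 miRNAs tested in each (grey, with a line at the median). The strain differences of the 3 miRNAs lie between -0.37 and 0.05 with intervals that include 0, and the tumor differences between -4.29 and -2.24.

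The size of the tumor difference changed with the scaling, and for miR-214 its sign did. The median of all tested miRNAs was -0.83 in the comparison with the mean of strains and -1.04 against FVB. Relative to it, miR-199a stood at -3.24 and -3.09, miR-199b at -3.39 and -3.24 and miR-214 at -1.40 and -1.37. Scaling on the 75th percentile of each array brought the median of all tested to 2.14 and the differences from the mean of strains to -1.10 for miR-199a, -1.25 for miR-199b and 0.74 for miR-214, which was then called higher (adjusted p = 0.0114 in limma). Among all tested miRNAs 172 were then called higher and 70 lower, in place of 99 and 137. Under quantile normalization the called member was miR-214 (-3.02), whereas miR-199a (-0.38) and miR-199b (-0.86) were not called. Of all 261 tested, 76 were then called higher and 103 lower. The bound for miR-214 fell under 1 with both scalings, so that no fold is given there, and on the unscaled signals it was at least 3.70-fold.

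**Figure D4:**
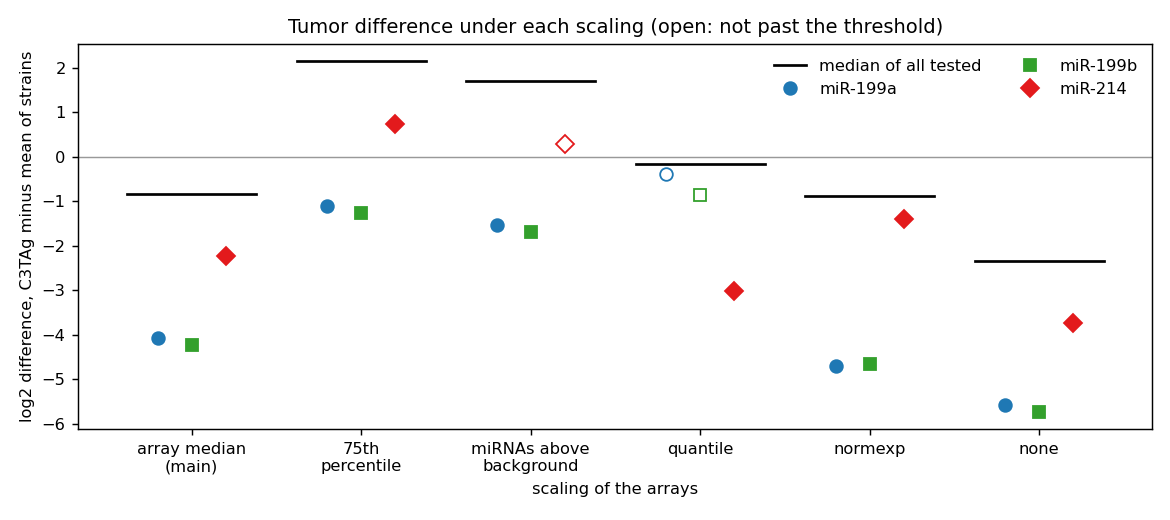
Log2 difference between C3TAg and the mean of strains for the 3 miRNAs under 6 ways of scaling the arrays, with a line at the median of all 261 miRNAs tested (open points did not pass the threshold). miR-199a and miR-199b are below 0 in all 6, from -5.73 to -0.38, and miR-214 runs from -3.74 to 0.74.

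Whether the 3 miRNAs vary together was asked over the 8 gland arrays, as 3 pairs. miR-199a and miR-199b moved almost as one, with Pearson r = 0.98 (exact permutation p = 0.000496, adjusted 0.00149) and Spearman rho = 0.90 (exact permutation p = 0.00456, adjusted 0.0137). Their probes differ by 1 base and can share target molecules, so this r cannot show that separate miRNAs vary together. Without the 2 arrays farthest from the median of miR-199a (FVB replicate 2 and Balbc replicate 3) r was 0.95 (exact permutation p = 0.0167), and over the 6 Balbc and FVB129B6 arrays alone it was 0.97. The difference between these 2 probes had an SD of 0.043 over the 8 gland arrays, against 0.36 over the 3 tumor arrays.

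The relation of miR-214 to the miR-199 probes did not pass after adjustment over the 3 pairs. Against miR-199a it had r = 0.70 (exact permutation p = 0.0378, adjusted 0.0535) but rho = 0.19 (exact permutation p = 0.665), and against miR-199b r = 0.67 (exact permutation p = 0.0535) and the same rho. Without the 2 arrays named above r dropped to 0.59 and 0.55 (exact permutation p = 0.249 and 0.272) and did not pass over the 6 arrays left. Over the Balbc and FVB129B6 arrays r was 0.44 and 0.40. The deviations of miR-214 from its strain means had r = 0.93 with those of miR-199a and 0.88 with those of miR-199b, given as a description only. Under quantile normalization r between miR-214 and the miR-199 probes was -0.056 and -0.083, and with the normexp correction 0.86 and 0.82. Arrays share a scaling constant that moves all miRNAs of an array together, and the median r over all 33930 pairs of the 261 miRNAs was 0.15. Of these pairs 0.174% had a higher r than miR-199a with miR-199b, 17.5% a higher r than miR-199a with miR-214 and 19.8% a higher r than miR-199b with miR-214.

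**Figure D5:**
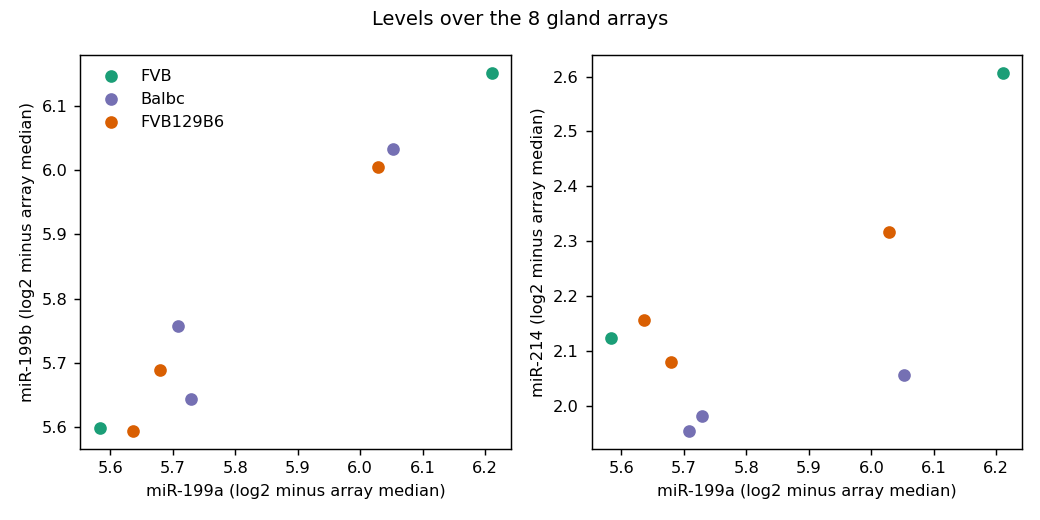
Levels of miR-199b (left) and miR-214 (right) against miR-199a over the 8 gland arrays, coloured by strain (log2 green signal minus array median on both axes). The left points follow a line (r = 0.98), while on the right the Balbc points lie below the others and FVB replicate 2 stands at the upper end.

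The pattern over the 8 gland arrays, as the mean of the 3 centred levels, ran from -0.16 on FVB replicate 1 to 0.39 on FVB replicate 2. The members themselves had r of 0.97 (miR-199a), 0.96 (miR-199b) and 0.85 (miR-214) with this mean. Each member, both near-identical miR-199 probes included, is part of the mean and so correlates in part with itself. The 5 miRNAs outside this mean that were most like it by Pearson r were miR-696 (0.88), miR-301 (0.88), miR-770-3p (0.87), miR-221 (0.87) and miR-31 (0.86). Each of these was more like it than miR-214 was. Of the 5, miR-696, miR-301, miR-221 and miR-31 were well above background on 8 of 8 gland arrays, and miR-770-3p on 4. miR-31 spanned a wider range, from 1.09 to 3.98, than miR-301, from 3.77 to 4.30. The F-test over strains, which called 46% of all tested miRNAs, called none of these 5, with adjusted p of 0.107 (miR-31) to 0.612 (miR-301) in limma.

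Other miRNAs of mesenchymal and muscular cells were described as a list of 15, all of them measured on the array and well above background on every gland array. miR-143 and miR-145, which are made from 1 transcript and are abundant in smooth muscle and myoepithelium, belong to it, as does miR-21, which is widely expressed. Between Balbc and FVB 2 of the 15 were called higher, 3 lower and 10 did not pass, where 37.9% of all tested were called, and the median difference was -0.13 beside -0.48 for all tested. The largest were miR-382 (0.94, adjusted p = 0.00617 in limma) and miR-21 (0.56, adjusted p = 0.0464) upward, and miR-152 (-1.11, adjusted p = 0.00543) and miR-22 (-1.003, adjusted p = 0.0129) downward. Between FVB129B6 and FVB 2 were higher, again miR-382 (0.96) and miR-21 (0.70), 1 was lower (miR-22, -1.52) and 12 did not pass, beside 39.5% called of all tested, with a median of -0.26 beside -0.39. Between Balbc and FVB129B6 none of the 15 was called by limma, beside 3.45% of all tested.

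In the tumors 1 to 3 of the 15 were well above background on an array. Against the mean of strains 12 were called lower and 2 higher, where 52.5% of all tested miRNAs were called lower and 90.4% in either direction, with a median of -4.29 beside -0.83 for all tested. miR-145 was the one measured on 3 of 3 tumor arrays and was lower by limma (-4.85, SE 0.25, adjusted p = 1.32e-08). Of the 12 that no tumor array measured above background, 8 had a bound over 1, from 1.07-fold to 121-fold (miR-143) higher in the glands on the array median scale. With the 75th percentile, a check chosen after seeing the data, 3 of the 12 had a bound over 1, miR-143 (15.4-fold), miR-22 and miR-99a. miR-487b and miR-411, called higher in the fit (0.61 and 0.60), were among the other 4, for which no fold is given. In the comparison with FVB, too, 12 were called lower and 2 higher, where 52.5% of all tested were called lower, with a median of -4.47 beside -1.04.

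Markers of other cell types were read on the same arrays, since a bulk gland mixes them and a lower level cannot separate fewer cells of a type from less RNA per cell. The summed level of a marker list is the log2 of the sum of its linear levels. All 10 epithelial miRNAs (the miR-200 family with miR-141, and others) were well above background on every gland array, and 1 to 5 of them on a tumor array. Their summed level was 9.02 and 9.93 in FVB, 8.18 to 9.04 in Balbc, 9.01 to 9.36 in FVB129B6 and 4.48 to 4.92 in the tumors, and 9 of 10 were called lower in the tumors than in the mean of strains, as were 52.5% of all tested miRNAs (median -4.13, beside -4.07 and -4.23 for the miR-199 probes). The 4 skeletal muscle miRNAs measured had summed levels of 3.71 and 6.10 in FVB, 9.24 to 10.03 in Balbc and 8.52 to 8.69 in FVB129B6, and 4 of 4 were called higher in both latter strains than in FVB, as were 15 of all 261 tested miRNAs in Balbc and 21 in FVB129B6. In the tumors their summed level was 2.10 to 4.79, with 0 to 2 of the 4 well above background on an array. Of the epithelial list 5 of 10 were called lower in Balbc than in FVB and 2 in FVB129B6, where 84 and 82 of all 261 were called lower. The 7 blood and lymphoid miRNAs had summed levels of 9.67 and 9.72 in FVB, 7.94 to 9.57 in Balbc, 7.26 to 7.77 in FVB129B6 and 3.21 to 4.199 in the tumors. On a tumor array 0 to 1 of these 7 were well above background. Than in FVB, 1 of 7 was called lower in Balbc and 3 in FVB129B6, as were 84 and 82 of all 261. The 1 endothelial miRNA measured, miR-126-5p, was well above background on 6 of 8 gland arrays and on 0 of 3 tumor arrays. Limma nevertheless called it higher in the tumors, by 3.28 against the mean of strains and by 2.64 against FVB. Of all 261 tested, 99 and 93 were called higher there. Its tumor values were background, so no direction is read from them. The part of these cell types in the levels of miR-199 and miR-214 was not tested.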

How the data were processed

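The arrays carry 4 probes per miRNA for 334 mouse miRNAs. Per the labels, 1 µg of total RNA was labelled with Hy3 at its 3′ end. The authors deposited the Feature Extraction values of each scan, with green and red processed signal intensity and quality flags per spot, and a table of log2 values of the 1336 plus-strand mouse spots, which equals the log2 green signal after a constant per array (SD of the difference 0). No column of samples was left unused. The study states a global median normalization, a filter on detection calls and the removal of control, non-mouse and minus-strand probes.

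Here each array was centred on its median log2 green signal over these spots, outlier spots were dropped, and the 4 spots of a miRNA gave 1 mean. A miRNA entered a fit when at least 50% of its spots were well above background on at least 3 arrays, and 261 did. This stands in for the filter on detection calls. Strains were compared in a limma fit over the 8 gland arrays, tumors in a fit over all 11, called at a Benjamini-Hochberg adjusted p under 0.05. Alternatives were other scalings, a normexp background correction (offset 50), the deposited table, green over red, other filters and floors, outlier or single spots, arrays left out or averaged, blocks and an intensity trend. Correlations used exact two-sided permutation tests. The 3 miRNAs and the lists were chosen with earlier results of these data known. Named were the 3 members, the 5 most similar miRNAs and, of the mesenchymal list, at most 2 called miRNAs per direction with the largest difference, with miR-145 added after its values were seen. Sequences and coordinates are RefSeq's on GRCm38.p6, and 285 of 334 probes matched a RefSeq hairpin. Mature miR-199b-5p was read from its probe.

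Replicate numbers do not pair the arrays. Deviations from group means correlated at 0.0440 on average for equal numbers across groups (15 pairs) and at -0.0221 for unequal numbers (30 pairs). No 2 arrays were identical, and the SD of the log2 difference between arrays of a group was 0.374 to 0.767. On simulated data for the 261 miRNAs, 50 of them changed, the Balbc and FVB contrast found 52% of log2 changes of 1 and 90% of those of 2, and the tumor contrast 76% and 100%. False calls numbered 1 and 3 in the Balbc and FVB contrast, and 2 and 5 in the tumor contrast. The number of arrays limits the precision. R 4.3.3, limma 3.58.1, Python 3.11.15, numpy 2.4.6, pandas 2.3.3, scipy 1.17.1 and matplotlib 3.10.9 were used.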

Additional observations from a re-analysis of the deposited data

Results flagged for a closer look

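The comparisons use the green channel only. The labels name the Hy3 dye alone, while the study's methods describe labelling by Hy3, Hy5 or both. Which RNA, if any, the red channel of these arrays holds is not stated in either. It nevertheless carried signal at the spots of these miRNAs above the negative control spots. In red at least 50% of the spots lay well above background on 11 of 11 arrays for miR-199a, on 10 for miR-199b and on 8 for miR-214, the 8 being the gland arrays. On the tumor arrays the red median of miR-199a was 4130, 1660 and 2490, with 12 of 12 spots well above background, where its green median was 505, 260.5 and 884.5 with 3 of 12. Red was thus 2.82 to 8.18 times green for miR-199a in the tumors and 0.617 to 1.38 times in the glands. For miR-199b red was 0.886 to 2.51 times green in the tumors and 0.528 to 1.09 times in the glands, and 4 of 12 red tumor spots were well above background. For miR-214 red reached 119.5 to 228.5 in the tumors, with 0 of 12 spots well above background, and 904.5 to 2355 in the glands. The median red intensity of the negative controls was 122 to 147 on the tumor arrays, but the brightest of them reached 371 to 2650. Apart from the ratio of green to red, no test used the red channel.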

How the results depend on the processing

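The miR-199 differences between tumors and glands stayed below 0 under every alternative run, and left the threshold only under quantile normalization (-0.38 and -0.86 against the mean of strains, -0.30 and -0.79 against FVB), which called 1 of the 3 members in both comparisons. miR-214 turned to 0.74 and 0.82 with 75th percentile scaling and to 0.30 and 0.54 when arrays were scaled on miRNAs well above background throughout. It was not called with tumor arrays at the lowest level well above background (-0.39 and -0.57) or with 1 common floor, chosen after seeing the data (-0.10 and -0.24). Leaving out a tumor, Balbc or FVB129B6 array in turn called 3 members in both tumor comparisons every time. The main fits called 90.4% and 88.1% of all tested there. A filter that asks for signal on every array left no member to test there. Over strains, 3 members were called without normalization in the F-test, in Balbc minus FVB and in FVB129B6 minus FVB, and 2, 2 and 3 with normexp. Leaving out a Balbc or FVB129B6 array in turn called 0 in the F-test and in Balbc minus FVB. No call is read from the fits that leave a lone FVB array. Of all 261 miRNAs tested, 151 in Balbc and 176 in FVB129B6 were called higher than in FVB without normalization. With normexp these counts were 46 and 44. The main F-test called 46% of all tested, and its shares in these settings are not given here. Signs of uncalled strain differences turned often. In the order miR-199a, miR-199b, miR-214, Balbc minus FVB turned to 0.36, 0.37 and 0.064 with the 75th percentile, 0.38, 0.39 and 0.082 with miRNAs above background, 1.28, 1.29 and 0.98 unscaled, and 0.72, 0.79 and 0.27 with normexp; miR-199a and miR-199b turned to 0.24 and 0.22 with quantile and 0.55 and 0.45 with green over red, and miR-199a to 0.0074 with outlier spots kept and with the deposited table. FVB129B6 minus FVB turned to 0.25, 0.25 and 0.18, to 0.41, 0.41 and 0.34, to 1.30, 1.30 and 1.23, to 0.59, 0.62 and 0.41, to 0.030, 0.015 and 0.27 and to 0.57, 0.47 and 0.016 under the same 6 settings. Balbc minus FVB129B6 turned for miR-199a and miR-199b to -0.025 and -0.025 with miRNAs above background, to -0.024 and -0.023 with green over red, to -0.012 and -0.012 unscaled and to -0.0087 and -0.019 with slide row as a block. Leaving out arrays gave -0.38 to 0.25, -0.34 to 0.21 and -0.61 to -0.13 in Balbc minus FVB, -0.43 to 0.20, -0.39 to 0.16 and -0.42 to 0.062 in FVB129B6 minus FVB, and -0.063 to 0.17, -0.063 to 0.17 and -0.24 to -0.12 in Balbc minus FVB129B6. With the replicate number as a block, 0 members were called between strains and 3 in both tumor comparisons (-4.15, -4.30 and -2.24 against the mean of strains), and the block changed no call of a member. The share of all miRNAs called with this block is not given here. Of the 3 pairs, 1 passed the threshold for Pearson r, and 3 did with normexp or with Balbc replicates 2 and 3 averaged (0.79 and 0.75 for miR-214); under quantile normalization r of miR-214 was -0.056 and -0.083. The causes were not tested. Signal over background limits the tumor values.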
